A study of Mus musculus with 60 samples.

Results

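The genes described here are the corticosteroid receptors and a small group of genes that act with them or respond to them. There are 8 of them among the 46480 genes of the count tables, chosen by name: the receptors *Nr3c1* and *Nr3c2*, the co-chaperones *Fkbp5* and *Fkbp4*, the enzyme gene *Hsd11b1*, and the response genes *Sgk1*, *Tsc22d3* and *Zbtb16*. They were measured by RNA-Seq of total RNA in whole-tissue samples of the dorsal and ventral dentate gyrus (DG) of male C57BL6J mice, which were weaned at day 22, spent 8 weeks in standard housing (SH, 3 mice per cage) or in an enriched environment (EE, 12 mice per cage, with toys and running wheels), and were 80 days old at collection. Each sample held pooled tissue of several mice, and dorsal and ventral samples with the same housing and number came from the same mice. The 4 groups had 5 samples each, and SH replicate 3 was left out in both regions, which left 18 samples of 9 pools (4 SH and 5 EE).

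Corticosterone, the main glucocorticoid of mice, crosses into the brain and binds a pair of nuclear receptors. The mineralocorticoid receptor has the higher affinity and is abundant in the hippocampus, while the glucocorticoid receptor is occupied mainly at the daily peak and under stress. The glucocorticoid receptor is held in an Hsp90 complex, and with hormone bound it enters the nucleus and binds inverted repeats in DNA. Its own target genes include *Fkbp5*, *Sgk1*, *Tsc22d3* and *Zbtb16*.

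The question asked of these data was whether the genes differ between dorsal and ventral DG, and between EE and SH within each region. All 8 differed between the regions: 7 were higher in dorsal DG and *Tsc22d3* was higher in ventral DG. Under EE, *Sgk1* was higher than under SH in both regions, by 26.7% in dorsal and 31.3% in ventral DG, and no other of the 8 genes passed the test unless samples were matched by replicate number, when *Tsc22d3* passed too.

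Between 22919364 and 28301861 fragments per sample fell on genes, so counting error is small for these genes, each of which had at least 883 fragments in each sample. Markers of other cell types were present in the tissue, as whole-tissue samples would hold. The summed level of 4 granule neuron markers, *Prox1* among them, was 783 to 964 CPM (fragment counts divided by each library's TMM-scaled total) in dorsal and 396 to 585 in ventral samples, and that of 7 choroid plexus markers was 23.3 to 210 in dorsal and 389 to 1427 in ventral samples. The 5 thalamus and habenula markers summed to 91.9 to 140 CPM in dorsal and 31.5 to 44.5 in ventral DG. The 5 CA pyramidal and mossy cell markers summed to 90.0 to 141 CPM in dorsal and 153 to 200 in ventral samples. Taken singly they were split: 2 passed the edgeR test as higher in dorsal, 2 as higher in ventral DG, and 1 did not pass. Their median log2 fold change, dorsal minus ventral, was 0.24. Oligodendrocyte, astrocyte, microglial and endothelial and mural sums overlapped between the regions, and no marker was at 0. Single markers of these lists did differ by edgeR. Of 8 oligodendrocyte markers, 3 passed as higher in dorsal DG, and of 6 astrocyte markers, 3 passed as higher in ventral DG. Of 8 endothelial and mural markers, 1 passed as higher in dorsal and 2 in ventral DG, and 0 of 6 microglial markers passed. Of all tested genes, 58.4% passed. The part of cell composition in the differences described here was not tested. In bulk tissue, fewer cells of a type and less RNA per cell cannot be told apart.

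RefSeq (GRCm38.p6) windows of 300 bases, 250 before and 50 after an annotated start, were listed for 6 of the 8 genes, 13 windows in all. They were searched on both strands for the full receptor element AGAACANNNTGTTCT, a palindrome, and for its arm AGAACA, which each full element holds once on either strand. The full element was found in 3 of 32851 promoter windows (0.009%), and *Sgk1* had 1 of these. The arm was found in 18.974% of all windows and in 4 of the 13 windows here, 3 of *Sgk1* and 1 of *Tsc22d3*. The 250 bases before the start of that *Sgk1* window (chr10:21993640-21993889, plus strand) and of that *Tsc22d3* window (chrX:140600523-140600772, minus strand) are shown because these are the genes described most fully here. They read 5′ to 3′, with each arm in capitals on whichever strand it reads.
*Sgk1*: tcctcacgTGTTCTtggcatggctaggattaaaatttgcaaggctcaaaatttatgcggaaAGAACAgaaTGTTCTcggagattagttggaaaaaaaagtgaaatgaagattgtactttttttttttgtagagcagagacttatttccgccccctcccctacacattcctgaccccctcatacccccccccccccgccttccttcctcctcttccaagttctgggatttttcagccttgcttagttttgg
*Tsc22d3*: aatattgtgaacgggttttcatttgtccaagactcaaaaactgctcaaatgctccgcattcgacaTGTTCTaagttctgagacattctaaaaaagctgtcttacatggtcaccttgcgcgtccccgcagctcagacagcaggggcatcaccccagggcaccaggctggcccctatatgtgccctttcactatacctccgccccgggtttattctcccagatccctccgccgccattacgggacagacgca
The full element of *Sgk1* spans bases 62 to 76 of its window, 175 to 189 bases before the start at position 21993890, where a Gencode transcript of the gene also begins. The capitals at bases 9 to 14 are a separate arm. In *Tsc22d3* the single arm is at bases 66 to 71, and 0 Gencode transcripts start within 20 bases of that window's start. These are matches of letters. Binding was not measured, and sequence was not tested against expression.

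*Nr3c2*, the mineralocorticoid receptor (mm10 chr8:76899442-77245012, plus strand), was at 419, 385, 432 and 445 CPM in the dorsal SH samples and at 397, 359, 415, 410 and 381 CPM in the dorsal EE samples. In ventral DG it was at 267, 272, 293 and 291 CPM under SH and at 256, 258, 271, 274 and 265 CPM under EE. All dorsal samples were thus above all ventral samples. Its level was 48.9% higher in dorsal DG (log2 fold change 0.57, SE 0.04, edgeR BH-adjusted p = 1.49e-11), the largest regional difference among the genes higher in dorsal DG. *Nr3c1*, the glucocorticoid receptor (chr18:39410545-39519421, minus strand), was at 161, 157, 153 and 158 CPM in dorsal SH and at 148, 140, 149, 142 and 134 CPM in dorsal EE samples. The ventral levels were 121, 127, 122 and 127 CPM for SH, and 113, 125, 115, 120 and 115 CPM for EE. The regions did not overlap for this gene either, with a dorsal level 23.7% higher (log2 fold change 0.31, SE 0.03, edgeR BH-adjusted p = 1.61e-08). These calls stand against a background in which 58.4% of the 17040 tested genes differed between regions, 29.0% toward dorsal and 29.3% toward ventral DG, so a regional call is common among all genes.

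**Figure D1:**
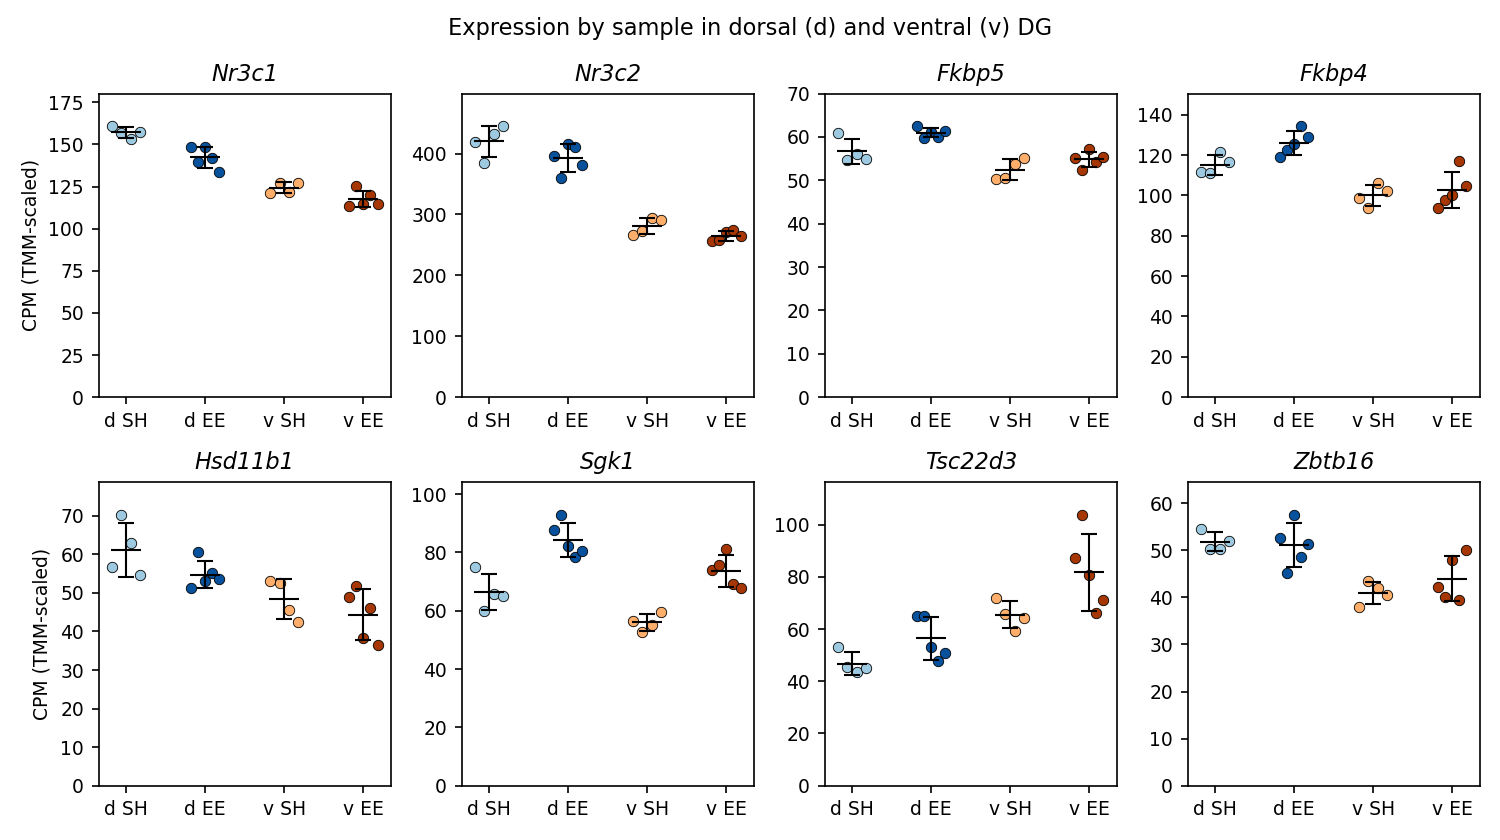
Each panel plots the CPM of 1 gene (y axis from 0) in the samples of the 4 groups, dorsal (d) or ventral (v) DG under SH (n = 4) or EE (n = 5), with bars at the mean ± SD. Dorsal samples of *Nr3c2* (359 to 445 CPM) lie above all ventral ones (256 to 293 CPM), and *Sgk1* is higher in each EE sample than in each SH sample of the same region.

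The balance of the receptors differed between regions, which restates the unequal regional differences given above for the same counts. The ratio of *Nr3c1* to *Nr3c2* counts was 0.375 ± 0.025 (SD, n = 4) under SH and 0.363 ± 0.018 (n = 5) under EE in dorsal DG. The ventral ratio was 0.444 ± 0.022 (SD, n = 4) under SH and 0.444 ± 0.024 (n = 5) under EE. It was higher in the ventral sample in 9 of 9 pools, with a mean log2 difference, dorsal minus ventral, of -0.27 ± 0.05 (SD of 9 pools). The exact two-sided sign-flip permutation test over pools gave p = 0.00391, the smallest it can give, and 0.0117 after BH adjustment over 3 tests of the ratio. Between EE and SH the ratio differed by -0.04 on the log2 scale in dorsal DG (exact permutation p = 0.468, adjusted 0.702) and by 0.0014 in ventral DG (exact permutation p = 0.960, adjusted 0.960). The ratio was added after the data had been seen.

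Neither receptor passed the test for housing. *Nr3c1* was lower in each dorsal EE sample (134 to 149 CPM) than in each dorsal SH sample (153 to 161 CPM), a log2 fold change of -0.14 (SE 0.04) with an unadjusted p of 0.00328 and an edgeR BH-adjusted p of 0.179. In ventral DG it was -0.08 (SE 0.04, edgeR BH-adjusted p = 0.701) and the groups overlapped. *Nr3c2* gave log2 fold changes of -0.10 in dorsal DG (SE 0.05, edgeR BH-adjusted p = 0.635) and -0.08 in ventral DG (SE 0.05, edgeR BH-adjusted p = 0.758). Both were lower in the EE sample of each of the 4 replicate numbers that SH and EE share, in either region, as a description of these samples.

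*Fkbp4*, whose protein FKBP52 favors receptor transport to the nucleus, and *Fkbp5*, whose protein FKBP51 lowers the receptor's affinity for hormone, were both higher in dorsal DG. *Fkbp4* (chr6:128429735-128438677, minus strand) ranged over 111 to 122 CPM in dorsal SH, 119 to 134 in dorsal EE, 93.8 to 106 in ventral SH and 93.6 to 117 in ventral EE. It was higher in the dorsal sample of 9 of 9 pools, by 18.9% (log2 fold change 0.25, SE 0.04, edgeR BH-adjusted p = 1.65e-05). *Fkbp5* (chr17:28399094-28517527, minus strand) had the smallest regional difference of the 8 genes, with 54.7 to 62.5 CPM in the 9 dorsal samples and 50.3 to 57.2 CPM in the 9 ventral ones, which overlap. It was higher in the dorsal sample of 8 of 9 pools, by 9.59% (log2 fold change 0.13, SE 0.03, edgeR BH-adjusted p = 0.000825), and over SH samples alone the adjusted p was 0.0525. Under EE neither gene passed the test: *Fkbp5* gave log2 fold changes of 0.11 in dorsal DG (SE 0.04, edgeR BH-adjusted p = 0.441) and 0.07 in ventral DG (SE 0.04, adjusted p = 0.770), and *Fkbp4* gave 0.13 (SE 0.06, adjusted p = 0.495) and 0.04 (SE 0.06, adjusted p = 0.919).

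*Hsd11b1* (chr1:193221634-193264075, minus strand) encodes the reductase that regenerates active glucocorticoid from its inert keto form inside cells. It varied more between replicates than the receptors did, with 54.6 to 70.3 CPM in dorsal SH, 51.3 to 60.6 in dorsal EE, 42.5 to 53.0 in ventral SH and 36.6 to 51.8 in ventral EE. The dorsal sample was higher in 9 of 9 pools, by 24.8% (log2 fold change 0.32, SE 0.07, edgeR BH-adjusted p = 0.000264), although the regions overlapped when all samples were set side by side. For housing the log2 fold changes were -0.16 in dorsal DG (SE 0.09, edgeR BH-adjusted p = 0.679) and -0.13 in ventral DG (SE 0.09, edgeR BH-adjusted p = 0.805).

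*Sgk1* (chr10:21882184-21999903, plus strand) encodes the serum- and glucocorticoid-regulated kinase, which acts on ion channels and transporters. In dorsal DG it was at 75.0, 60.1, 65.9 and 65.2 CPM under SH and at 87.6, 93.0, 82.2, 78.5 and 80.3 CPM under EE. In ventral DG it was at 56.6, 52.8, 55.0 and 59.5 CPM under SH and at 73.9, 75.8, 81.3, 69.1 and 67.6 CPM under EE. In either region each EE sample was above each SH sample. The log2 fold change was 0.34 in dorsal DG (SE 0.06, edgeR BH-adjusted p = 0.00926) and 0.39 in ventral DG (SE 0.07, edgeR BH-adjusted p = 0.00522). In the same tests 0.716% of all tested genes were called in dorsal and 0.246% in ventral DG, and 1 of the 8 genes, *Sgk1*, was called in each.

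Single pools decided the *Sgk1* call within a region, though not its size. Without SH replicate 2 the dorsal log2 fold change was 0.30 (edgeR BH-adjusted p = 0.0581), and without SH replicate 4 the ventral value was 0.38 (edgeR BH-adjusted p = 0.0512). With the dorsal and ventral counts of each pool summed, a test added after those within regions had been seen, *Sgk1* was 29.4% higher in EE pools (log2 fold change 0.37, SE 0.05, edgeR BH-adjusted p = 0.00276) and passed in all 15 alternatives run for it, which included leaving out each pool. In that test 0.786% of 18182 tested genes were called. The left-out SH replicate 3 had 61.5 CPM in its dorsal and 56.7 in its ventral sample, within the range of the other SH samples of each region. *Sgk1* was also higher in dorsal than ventral DG in 9 of 9 pools, by 16.8% (log2 fold change 0.22, SE 0.05, edgeR BH-adjusted p = 0.000247).

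**Figure D2:**
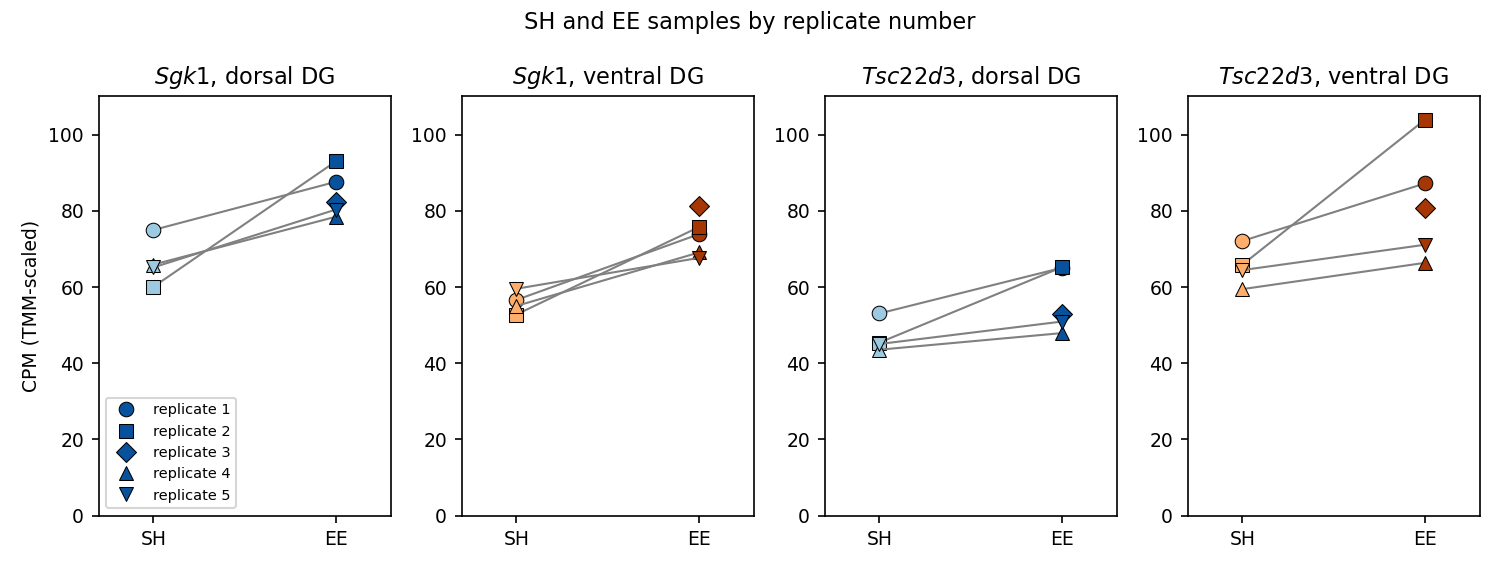
*Sgk1* and *Tsc22d3* CPM (y axis from 0) in SH and EE samples of each region, with lines joining samples that share a replicate number and a separate symbol for each number. Lines go up from SH to EE for all 4 shared numbers in each panel, and EE replicate 2 has the highest ventral *Tsc22d3* level (104 CPM).

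*Tsc22d3* (chrX:140539528-140600659, minus strand) encodes GILZ, a leucine zipper protein that mediates anti-inflammatory effects of glucocorticoids. It was the only one of the 8 genes with a higher ventral level, in 9 of 9 pools. The dorsal samples were at 53.1, 45.4, 43.6 and 45.0 CPM under SH and 65.0, 65.2, 53.0, 47.9 and 50.9 CPM under EE, and the ventral samples at 72.1, 65.9, 59.4 and 64.4 CPM under SH and 87.2, 104, 80.8, 66.4 and 71.1 CPM under EE. Within either housing all ventral samples were above all dorsal ones. The log2 fold change, dorsal minus ventral, was -0.51 (SE 0.08, edgeR BH-adjusted p = 6.57e-06), a direction opposite to that of *Sgk1*.

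For housing, *Tsc22d3* gave a log2 fold change of 0.27 in dorsal DG (SE 0.11, edgeR BH-adjusted p = 0.443) and 0.32 in ventral DG (SE 0.11, edgeR BH-adjusted p = 0.366), and the groups overlapped. Replicates 1 and 2 were the higher EE samples in both regions. With the replicate number in the model as a block, edgeR gave log2 fold changes of 0.27 and 0.32 and BH-adjusted p values of 0.0471 in dorsal and 0.0226 in ventral DG, with 1.43% and 0.616% of all tested genes called. The EE sample was higher in 4 of 4 shared numbers in each region. Genes that did not pass agreed in this way too. *Fkbp5* was higher in EE in 4 of 4 numbers in each region, and *Nr3c1* and *Nr3c2* in 0 of 4 in each region. *Zbtb16* was split, with 0 of 4 in dorsal and 2 of 4 in ventral DG. After subtraction of group means, *Tsc22d3* correlated over the 18 samples with the summed astrocyte markers (r = 0.76) and oligodendrocyte markers (r = 0.74), and *Sgk1* with the oligodendrocyte sum (r = 0.64) and the thalamus and habenula sum (r = 0.68), as a description, since dorsal and ventral samples share pools. Between EE and SH, 8 of 8 oligodendrocyte markers had log2 fold changes above 0 in dorsal DG (median 0.11) and 7 of 8 in ventral DG (median 0.07), and 1 of 4 and 0 of 4 granule neuron markers did (medians -0.15 and -0.14). None of these 12 markers passed the edgeR test for EE in either region, where 2 granule neuron markers in dorsal and 1 in ventral DG had an unadjusted p under 0.05. Of 6 astrocyte markers, 1 was above 0 for EE in dorsal DG (median -0.06) and 4 in ventral DG (median 0.06). Of 5 thalamus and habenula markers, 3 in dorsal (median 0.01, range -0.03 to 1.19) and 4 in ventral DG (median 0.04, range -0.06 to 0.28) were above 0. None of these astrocyte and thalamus and habenula markers passed the edgeR test for EE either. In dorsal DG, 1 marker of each of these 2 lists had an unadjusted p under 0.05, and in ventral DG 0 did. The part of any of these cells in either gene's difference was not tested.

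*Zbtb16* (chr9:48654297-48836222, minus strand), which encodes the zinc finger repressor PLZF, ranged over 50.3 to 54.6 CPM in dorsal SH, 45.2 to 57.6 in dorsal EE, 37.9 to 43.5 in ventral SH and 39.5 to 50.2 in ventral EE. It was higher in dorsal DG in 9 of 9 pools, by 21.2% (log2 fold change 0.28, SE 0.05, edgeR BH-adjusted p = 6.71e-05). Its log2 fold changes for housing were -0.02 in dorsal DG (SE 0.07, edgeR BH-adjusted p = 0.962) and 0.10 in ventral DG (SE 0.07, edgeR BH-adjusted p = 0.795).

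**Figure D3:**
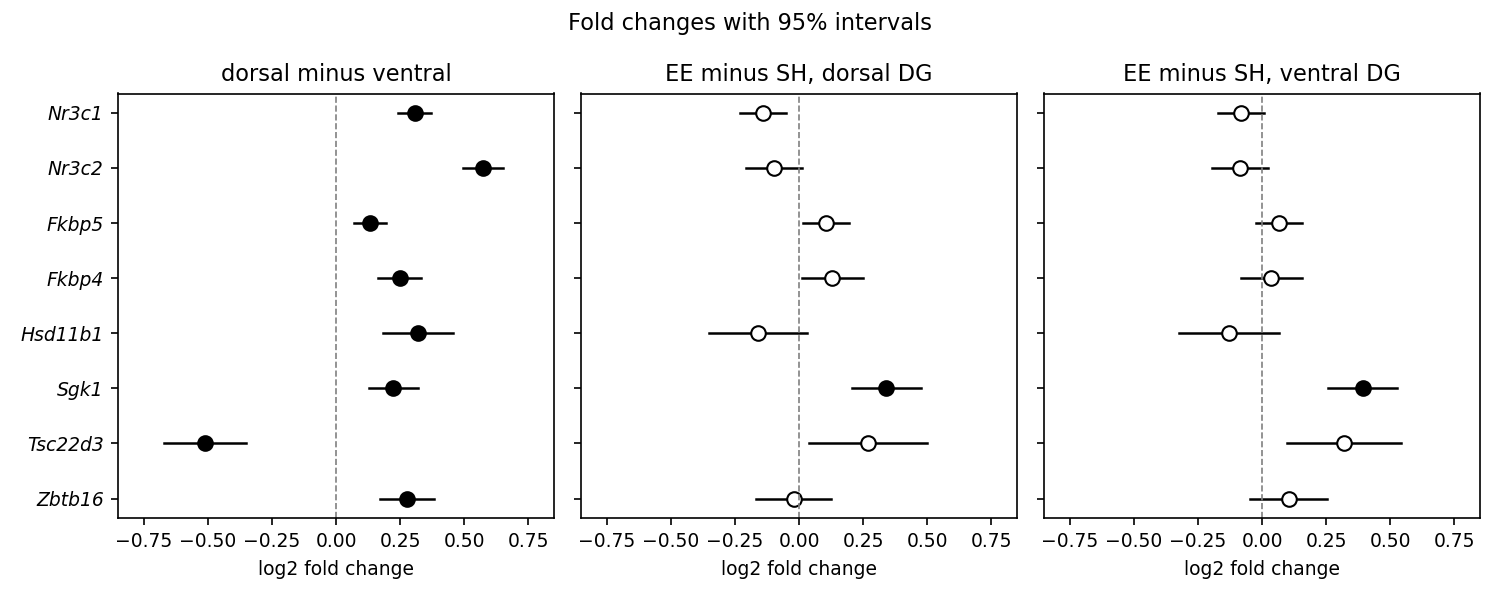
Log2 fold changes (x axis) of the 8 genes between regions and between EE and SH in each region, with 95% intervals. Filled points passed an edgeR BH-adjusted p of 0.05: all 8 genes between regions, with *Tsc22d3* alone below 0, and *Sgk1* alone for EE in either region.

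When a difference of at least 20% was also asked for, 5 of the 8 genes were called between regions (*Nr3c1*, *Nr3c2*, *Hsd11b1*, *Tsc22d3* and *Zbtb16*), against 32.7% of all tested genes. The interaction test of edgeR called 0 of 8, with 0 at an unadjusted p under 0.05 and 0 by DESeq2, against 0.00587% (1 gene) of all tested genes. For *Sgk1* the difference of the housing effects, dorsal minus ventral, was -0.05 on the log2 scale, with a 95% interval of -0.24 to 0.14.

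TPM, a level that is also scaled by transcript length, was used to order the genes within a sample and for ratios of genes of the same sample. *Nr3c2* came first of the 8 in all dorsal and all ventral SH samples and first or second in ventral EE samples. *Fkbp5* was seventh and *Zbtb16* eighth in each sample. In dorsal SH, *Nr3c2* was at 40.7 ± 9.0 TPM (SD, n = 4), *Fkbp4* at 28.8 ± 5.2, *Hsd11b1* at 24.99 ± 2.17, *Sgk1* at 16.1 ± 4.0, *Nr3c1* at 15.4 ± 2.8, *Tsc22d3* at 14.8 ± 3.5, *Fkbp5* at 8.78 ± 1.85 and *Zbtb16* at 5.26 ± 1.08. *Fkbp4* and *Hsd11b1* exchanged places among these samples, as did *Sgk1*, *Nr3c1* and *Tsc22d3*, so these neighbors did not differ beyond their spread. *Tsc22d3* stood at place 5 or 6 in dorsal samples, at 3 or 4 in ventral SH and at 1 to 3 in ventral EE samples. The ratio of *Sgk1* to *Tsc22d3* TPM was 1.08 ± 0.08 in dorsal SH, 1.21 ± 0.11 in dorsal EE, 0.638 ± 0.062 in ventral SH and 0.707 ± 0.070 in ventral EE. The deposited isoform-weighted transcript length of *Sgk1* was 2297 ± 83.5 bases in dorsal SH and 2235 ± 70.6 in dorsal EE, and 2364 ± 71.9 and 2288 ± 83.3 in the ventral groups, ranges that overlap.

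After group means were subtracted, the 8 genes did not move as a set: 13 of 28 pairs had a correlation above 0 over the 18 samples (median -0.03). The highest was that of *Sgk1* and *Tsc22d3* (r = 0.66) and the lowest that of *Fkbp4* and *Tsc22d3* (r = -0.78). Among all genes with a mean of at least 1 CPM, the most like *Tsc22d3* on this measure were *Nfkbia* (r = 0.97), *Mknk2* (0.96) and *Eml2* (0.95), and the most like *Sgk1* were *Tfeb* (0.87), *Rnf130* (0.86) and *Cdr2l* (0.85). With group differences kept in, *Nr3c2* was most like *Kcnd2* (0.99), *Zeb2* (0.99) and *Grin2a* (0.99), and *Sgk1* most like *Vwf* (0.92), *Fos* (0.91) and *Npas4* (0.90). These values are the highest of 14105 genes and describe the samples only.

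Of 20 other genes known to respond to glucocorticoids, 9 were higher in dorsal DG and 7 were higher on the ventral side, with *Cebpd* (log2 fold change 0.67, SE 0.07) and *Bcl6* (0.65, SE 0.06) higher in dorsal and *Angptl4* (-0.90, SE 0.13) higher in ventral DG, each with an edgeR BH-adjusted p of at most 2.55e-06. Of all tested genes, 29.0% were called as higher in dorsal and 29.3% as higher in ventral DG. Under EE, 0 of the 20 passed in dorsal DG by edgeR or DESeq2, with 8 at an unadjusted p under 0.05, and 1 passed in ventral DG, with 10 at an unadjusted p under 0.05. Of all tested genes, 8.81% in dorsal and 7.58% in ventral DG had an unadjusted p under 0.05. The gene that passed was *Dusp1*, a MAP kinase phosphatase that neuronal activity also induces (log2 fold change 0.52, SE 0.08, edgeR BH-adjusted p = 0.00204). Its log2 fold change in dorsal DG was 0.13 (SE 0.08, adjusted p = 0.695), and the difference between the regions did not pass the interaction test (adjusted p = 1.00). The median log2 fold change of the 20 was 0.13 in dorsal and 0.21 in ventral DG, where the medians of all tested genes were 0.00, and 17 and 18 of the 20 values were above 0. With the replicate block, *Ddit4* and *Nfkbia* passed in dorsal DG (edgeR BH-adjusted p = 0.0308 and 0.00550) and *Dusp1*, *Plin4* and *Fam107a* in ventral DG (0.00142, 0.0433 and 0.0306).

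**Figure D4:**
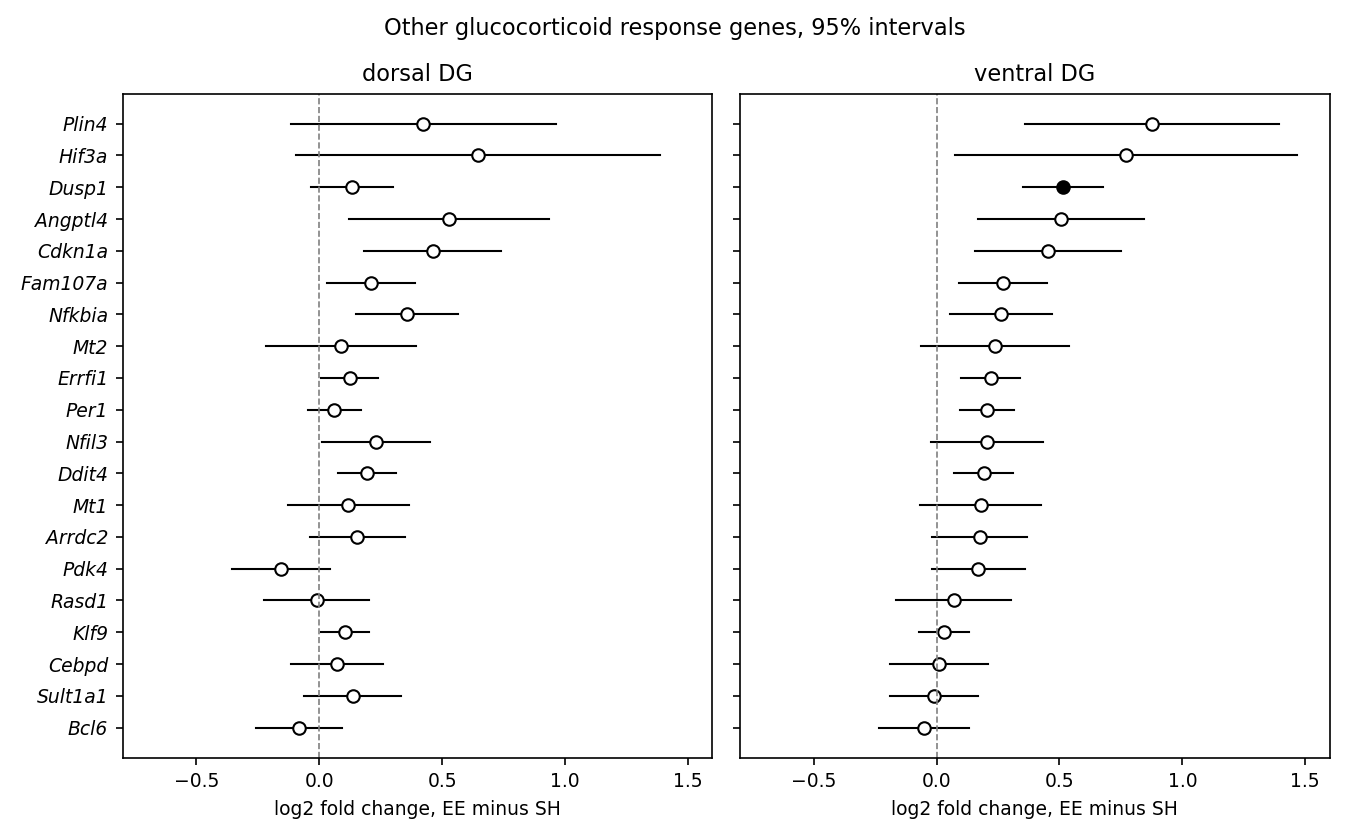
Log2 fold changes of EE against SH (x axis) with 95% intervals for 20 other glucocorticoid response genes, in dorsal (left) and ventral (right) DG, ordered by the ventral value. *Dusp1* in ventral DG (0.52) is the only filled point, which marks an edgeR BH-adjusted p under 0.05, and 17 dorsal and 18 ventral points lie above 0.

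The 7 nuclear receptor coregulators were all higher in dorsal DG, with *Crebbp* at 0.41 (SE 0.04) and *Ncoa1* at 0.39 (SE 0.04) on the log2 scale, and a median of 0.33 where the median of all tested genes was 0.00. Beside the regional counts here and below, 58.4% of all tested genes were called, 29.0% toward dorsal and 29.3% toward ventral DG. Of 9 chaperones of the receptor complex, 4 were higher in ventral DG, among them *Bag1* (-0.27, SE 0.04), *Hsp90aa1* (-0.20, SE 0.06) and *Dnajb1* (-0.17, SE 0.04), and 0 were higher in dorsal DG by edgeR or DESeq2, with 5 of 9 at an unadjusted p under 0.05 in either direction, against 62.2% of all tested genes. With the pool as a block, 5 of the 9 were higher in ventral DG and *Hsp90ab1* was higher in dorsal DG (0.13, SE 0.03, edgeR BH-adjusted p = 0.00297), where 62% of all tested genes were called. Of 8 genes of steroid metabolism and transport 4 had enough counts to be tested. *H6pd*, which supplies the cofactor of the enzyme encoded by *Hsd11b1*, was higher in dorsal DG like its partner (0.25, SE 0.05, edgeR BH-adjusted p = 0.000204), while *Srd5a1* (-0.38, SE 0.06) and *Abcb1b* (-0.35, SE 0.06) were higher in ventral DG. *Abcb1a* was higher in dorsal DG, unlike *Abcb1b* (with the pool as a block 0.14, SE 0.03, edgeR BH-adjusted p = 0.000747). By the main edgeR test 2 of the 4 passed in each direction. Among 12 paralogs and kinase substrates, 4 were higher in dorsal DG and 5 on the ventral side. The *Sgk1* substrate genes *Nedd4l* (0.63, SE 0.04) and *Foxo3* (0.59, SE 0.04) were higher in dorsal DG, while *Ndrg1*, a further substrate gene, was higher in ventral DG (-0.21, SE 0.06, edgeR BH-adjusted p = 0.00513), as was the progesterone receptor gene *Pgr* (-0.47, SE 0.06). Of 5 genes of the corticotropin-releasing hormone system, *Crhbp* (-1.14, SE 0.08) and *Crhr1* (-0.61, SE 0.05) were higher in ventral DG. None of the genes in these 5 lists passed for EE in either region by edgeR, with 2 of 37 tested genes at an unadjusted p under 0.05 in each region, below the shares of all tested genes given for the response genes, while DESeq2 called *Crhbp* in ventral DG.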

How the data were processed

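RNA-Seq libraries (stranded total RNA, paired-end) of the 4 groups were used, and the methylation and hydroxymethylation samples of the series are not analysed here. Per the labels the submitters' processing notes name Trim Galore 0.4.0, STAR 2.5.1b, RSEM 1.2.30 and mm10. The authors deposited a count of fragments per gene without normalization, of which the reverse-stranded column was used. A second table deposited by the authors holds an expected count, which shares out ambiguous fragments, TPM, and the isoform-weighted transcript length. Fragments not assigned to a gene (32.6 to 40.9%) stayed out of library sizes.

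The 17040 genes whose counts exceeded 10 in 2 or more samples entered edgeR 4.0.16 (R 4.3.3), with TMM factors, a quasi-likelihood F test, all 4 groups in one model and Benjamini-Hochberg (BH) adjustment over all tested genes. A gene was called at an adjusted p under 0.05. The region contrast was the mean of the SH and EE differences. Gene names came from Gencode M21 (45968 of 46480 IDs), promoters from RefSeq. TPM levels were not compared between samples, only ratios of genes within them, since 2 small RNA genes took 39.4 to 55.3% of it.

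SH replicate 3 was left out because the study excluded an SH sample for *Xist*. It was identified here by its level, 34.3 and 11.9 CPM in its dorsal and ventral samples against at most 0.652 in the others. Samples sharing a number in SH and EE deviated together from their group means in 8 of 8 pairs (r 0.11 to 0.28), so the number was also entered as a block. The labels do not say what the number marks. Same-pool dorsal and ventral samples had r of -0.13 to 0.31 (9 pairs). No 2 samples of a group held the same library (32 pairs). The main edgeR tests treated all samples as independent, although each pool was sampled in both regions. Their p-values measure the spread between samples within groups. With a block, the p-values measure the spread left after the block effects. The test of pool sums measures the spread between pools, and the sign-flip test uses differences within pools. No p-value measures the spread between single mice.

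The 8 genes and the lists were chosen with earlier results of these data known. Named from each other list were genes past the adjusted p with the 3 largest fold changes in a comparison, and the 3 genes most correlated with a member. Some results that this rule covers are left out of the text. *Ddit4*, *Nfkbia*, *Plin4*, *Fam107a*, *Ndrg1*, *Abcb1a* and *Hsp90ab1* were named after their values were seen. The test procedure was tested on simulated data. Alternatives included DESeq2 1.42.0, the likelihood ratio test, RLE size factors, no count filter, robust dispersion, all 20 samples, unstranded and expected counts, separate fits, a 20% fold limit, the block, and each pool left out.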

Additional observations from a re-analysis of the deposited data

How the results depend on the processing

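The calls of the members changed under few settings. Between regions 8 of 8 genes were called, 5 with a 20% fold limit, and 7 over SH samples alone, where *Fkbp5* did not pass (edgeR BH-adjusted p = 0.0525). Under EE 1 gene was called in dorsal DG, in ventral DG and in pool sums, and 2 in each with the replicate block, which adds *Tsc22d3*. The block changed no other call among the 8. Leaving out each pool gave 0 to 1 called genes in dorsal DG (0 without SH replicate 2) and 0 to 1 in ventral DG (0 without SH replicate 4). These fits have fewer samples, and the cause was not tested otherwise.

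Directions reversed only for values that had not passed a test. *Zbtb16* in dorsal DG (-0.021) gave 0.0077 without dorsal SH replicate 1 and -0.067 to 0.021 without single pools, and in pool sums (0.041) it gave -0.0010 with the replicate block. *Fkbp4* in ventral DG (0.035) gave -0.016 to 0.067 without single pools. Of the interactions, without single pools *Hsd11b1* (-0.031) gave -0.108 to 0.034, *Nr3c2* (-0.014) gave -0.039 to 0.012 and *Sgk1* (-0.051) gave -0.087 to 0.010, and with all 20 samples *Nr3c2* gave 0.023. The ventral EE difference of the receptor ratio (0.0014) was -0.0035 by TPM, -0.0040 by expected counts, and -0.031 to 0.027 without single pools.

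Counts over all tested genes depended more on the setting than the members did. In dorsal DG 122 genes were called for EE, against 188 by DESeq2, 225 by the likelihood ratio test, 243 with the block and 74 to 130 without single pools. In ventral DG 42 were called, against 85, 95 and 105 by the same 3 settings, 80 with no count filter, 25 in a separate fit and 18 to 50 without single pools. For pool sums 143 became 293, 325, 529 and 75 to 154. The region count of 9949 was 5573 with the fold limit, and the interaction count of 1 was 2 with the block and 0 in each fit that left out 1 pool.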
